A study of Homo sapiens with 8 samples.

Results

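The amino acid transporter genes described here are SLC7A11, SLC7A5, SLC3A2, SLC7A1, SLC38A2 and SLC1A5, followed through the ATF4 peak lists of 2 leukaemia cell lines. Members were chosen by position: a listed peak was taken when its nearest base lay within 5 kb of any of 7 hg19 start sites of these genes, of which SLC3A2 has an upstream and a downstream one. The downstream SLC3A2 position is a round number in that rule and may not be an annotated start, so distances from it are distances from a chosen point. The rule found 78 of the 312662 peaks in 8 lists. Where peaks of different lists that share at least 1 bp were merged, they made 12 of 132657 regions.

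ATF4 was mapped by chromatin immunoprecipitation followed by sequencing in Nalm6 and SUPB15, cell lines established from acute lymphoblastic leukaemia of the B-cell precursor kind. Both lines were compared with and without L-asparaginase, an enzyme drug that breaks down asparagine outside the cell, to see where ATF4 sits on the genome under amino acid stress. The groups were Nalm6 with L-asparaginase at 1 IU/ml for 2 h, untreated Nalm6, SUPB15 with L-asparaginase at 1 IU/ml for 2 h, and untreated SUPB15, with 2 libraries each. All carried no genetic change named in the labels, and each line is a single established line.

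ATF4 is a basic leucine zipper transcription factor whose protein accumulates when uncharged transfer RNA or other stress leads to phosphorylation of the initiation factor eIF2. It binds DNA as a dimer with C/EBP family proteins at a composite site, the C/EBP-ATF response element, and many of its known target genes import, make or charge amino acids. SLC7A11 (xCT) exchanges cystine for glutamate, SLC7A5 (LAT1) carries large neutral amino acids, and SLC3A2 (4F2hc, CD98) is the heavy chain that both need at the cell surface, while SLC7A1 (CAT-1) carries cationic amino acids, SLC38A2 (SNAT2) takes up small neutral ones with sodium, and SLC1A5 (ASCT2) exchanges neutral ones, glutamine among them.

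Promoter sequences from RefSeq (GRCh38.p14), each 250 bases before and 50 after a start, were on hand for 5 of the 6 genes, in 9 windows. They were searched on both strands for TGATGNAA, the core of the C/EBP-ATF response element. The core was in 1270 of 35116 windows of all genes (3.62%), and in 3 of these 9. Those 3 windows are shown, 5′ to 3′ on the strand of the gene, because they hold the letters of the factor's known element, which stand in capitals.
SLC3A2, the third start, chr11:62881449-62881748, plus strand: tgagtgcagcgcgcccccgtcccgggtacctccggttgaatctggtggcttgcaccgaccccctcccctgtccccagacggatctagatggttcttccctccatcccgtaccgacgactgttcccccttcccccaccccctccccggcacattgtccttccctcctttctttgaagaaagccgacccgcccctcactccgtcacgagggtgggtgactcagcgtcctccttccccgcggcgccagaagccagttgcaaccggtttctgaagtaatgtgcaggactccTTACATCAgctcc
SLC7A1, chr13:29595639-29595938, minus strand: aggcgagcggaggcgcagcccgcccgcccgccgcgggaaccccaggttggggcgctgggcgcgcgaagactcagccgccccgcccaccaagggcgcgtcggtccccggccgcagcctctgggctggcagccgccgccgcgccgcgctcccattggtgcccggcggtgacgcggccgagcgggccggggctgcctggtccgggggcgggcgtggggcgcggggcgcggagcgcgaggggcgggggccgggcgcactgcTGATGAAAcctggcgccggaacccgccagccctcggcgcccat
SLC1A5, the third start, chr19:46784765-46785064, minus strand: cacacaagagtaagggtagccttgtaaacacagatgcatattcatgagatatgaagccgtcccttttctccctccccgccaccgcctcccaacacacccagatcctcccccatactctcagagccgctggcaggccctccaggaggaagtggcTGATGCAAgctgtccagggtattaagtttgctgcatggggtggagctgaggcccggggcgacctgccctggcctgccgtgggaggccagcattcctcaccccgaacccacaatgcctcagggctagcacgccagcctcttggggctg
In the SLC3A2 window the capitals read TTACATCA, which is TGATGTAA on the other strand, at bases 38 to 45 after that start. In SLC7A1 the core is TGATGAAA, at bases 8 to 15 after the start. In SLC1A5 it is TGATGCAA, and the same 8 bases read TTGCATCA on the other strand, a frequent form of the element that was in 304 of all windows (0.866%). The cAMP response element TGACGTCA, in 649 of all windows (1.85%), was in none of the 9. A match describes letters in a window and not a bound site, and no match was found in the windows of SLC7A5 and SLC38A2 or of the other starts of SLC3A2 and SLC1A5.

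The deposited lists held 43376 and 48984 peaks for asparaginase-treated Nalm6, against 34825 and 36801 for untreated Nalm6. They held 88302 and 41213 peaks for asparaginase-treated SUPB15, against 9575 and 9586 for untreated SUPB15. Each peak has a fold enrichment at its summit over the local background, a −log10 p and a −log10 q, all given by the authors' peak caller. Read totals are not in the lists, so depth was taken from the lists themselves: fold and p were solved for the summit pileup, the number of fragments over the summit, and for the background. The lowest background of a list, its genome background, was 2.21 to 2.97 fragments in Nalm6 and 3.90 to 4.19 in SUPB15. A summit level below means pileup plus 1 divided by that genome background, and intervals and tests cover the spread between these 2 libraries a group. For Nalm6 the submitters describe independent experiments. Nothing says this of SUPB15, so that its p-values measure only the spread between these libraries, which may be technical.

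All 6 genes had a listed peak in every group. In both asparaginase lists, 7 of 7 start sites had a peak in Nalm6, and so had 7 of 7 in untreated Nalm6. In SUPB15 the number was 7 of 7 with asparaginase and 6 of 7 untreated, the exception being the upstream start of SLC3A2, which was missing from 1 of the 2 untreated lists. That order depends on the lists: cut to equal length, SUPB15 had 5 sites with asparaginase and 6 untreated. With only peaks of −log10 q of at least 10 it had 6 and 6, and within 2 kb of a start 6 and 5. The share of other start sites with a peak was not determined. Of the 12 regions, 6 were listed in all 8 libraries, beside 2.87% of all regions: those at SLC7A11, at the start of SLC7A5, at the downstream start of SLC3A2, at SLC38A2, at SLC7A1 and downstream of the SLC1A5 start.

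**Figure D1:**
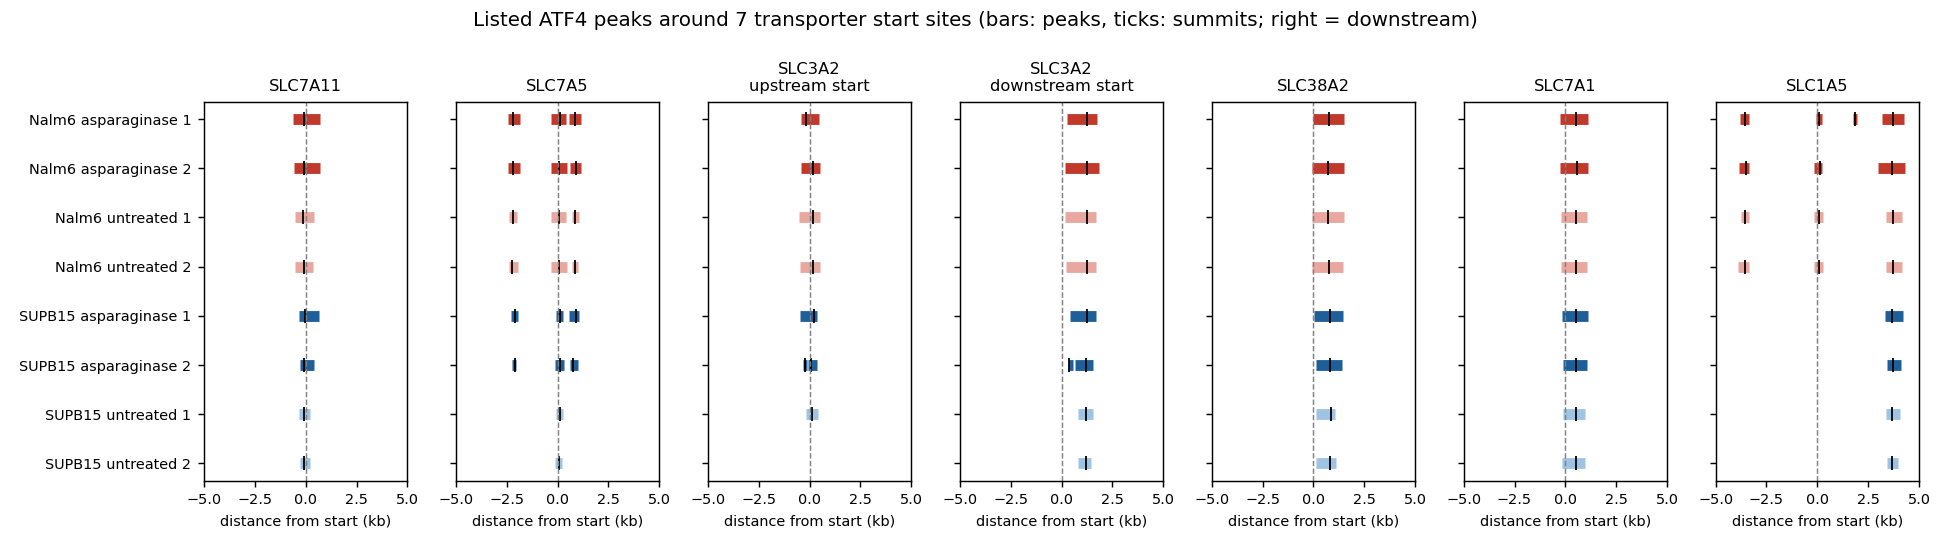
Listed ATF4 peaks within 5 kb of each start site, in kb from the start with downstream to the right; bars are peaks, ticks are summits, and the rows are the 8 libraries. SLC7A11 and SLC7A1 have 1 region each in every library, while the outer regions of SLC7A5 are absent from both untreated SUPB15 lists and those upstream and at the start of SLC1A5 from all SUPB15 lists.

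Summits kept their place between libraries. At SLC7A11 (region chr4:139162789-139164106, hg19, as are all peak positions here) they lay between −124 and −38 bp of the start in all 8 lists, where negative values are upstream. At SLC7A1 (chr13:30168689-30170112) they lay 529 to 548 bp downstream in all 8 lists, a range of positions narrower than that of any other region listed in all 8. At SLC38A2 (chr12:46765125-46766738) they lay 728 to 863 bp downstream in all 8 lists. Known amino acid response elements of these genes sit in the promoter of SLC7A11, the first exon of SLC7A1 and the first intron of SLC38A2, but no hg19 annotation was used here and exon or intron was not assigned to any peak.

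SLC3A2 and SLC1A5 each had their strongest region away from the start site most upstream. At SLC3A2 its summits (chr11:62648187-62649827) lay 1195 to 1250 bp from the downstream start of the rule, which is 25711 to 25766 bp from the upstream start. In RefSeq's GRCh38.p14 the third SLC3A2 start lies 25590 bp downstream of the first, and the core shown above lies 25627 to 25634 bp downstream of it. At SLC1A5 the strongest region (chr19:47287542-47288866) had its summits 3679 to 3720 bp downstream of the start. The TGATGCAA of SLC1A5 lies 3683 to 3690 bp downstream of the first SLC1A5 start in GRCh38.p14. The core of SLC7A1, at bases 8 to 15 after its start, lies away from that gene's summits at 529 to 548 bp downstream. The SLC7A1 peaks themselves are wide. In all 8 lists they began at −287 to −122 bp of the hg19 start and ended at 943 to 1136 bp, which takes in bases 8 to 15 after that start. These distances were each measured within 1 build, coordinates were not converted, and the starts of the 2 builds may differ. The region at the upstream SLC3A2 start (chr11:62622940-62624002) had its strongest summits between −173 and 211 bp of that start, in 7 lists. Asparaginase-treated SUPB15 replicate 2 alone listed a weaker second peak in both SLC3A2 regions, with a fold of 2.55 in the upstream one and of 1.96 in the downstream one.

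SLC7A5 had 3 regions. Its start-site region (chr16:87902653-87903417) had summits 48 to 116 bp downstream and was in all 8 lists. A downstream region at 753 to 893 bp (chr16:87901945-87902552) and an upstream region at −2233 to −2102 bp (chr16:87904939-87905544) were each in 6 lists: all 4 of Nalm6 and both of asparaginase-treated SUPB15. At SLC1A5, regions at the start (86 to 128 bp downstream) and upstream (−3553 to −3519 bp) were in the 4 Nalm6 lists only, and another, 1864 bp downstream, was in 1 list, asparaginase-treated Nalm6 replicate 1, where its fold enrichment of 1.77 put it at rank 43375 of 43376. The farthest peak taken, at SLC1A5, had its nearest base 3429 bp from the start, and the nearest peak left out lay 6490 bp from the upstream start of SLC3A2 in untreated Nalm6 replicate 1.

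In Nalm6 no transporter region was listed in both libraries of 1 treatment and in neither library of the other. Of 12 regions, 11 were listed in all 4 Nalm6 libraries, beside 44.1% of all Nalm6 regions. None was listed in both asparaginase libraries alone (12.3% of all regions) or in both untreated libraries alone (1.21%), and the twelfth, downstream of the SLC1A5 start, was in asparaginase replicate 1 only. With only peaks of −log10 q of at least 10, or without asparaginase replicate 2, the number gained in Nalm6 was 1. In SUPB15, 2 of 9 regions were listed in both asparaginase libraries and neither untreated one, beside 16.7% of all SUPB15 regions; both belong to SLC7A5. Another 6 of the 9 were in all 4 SUPB15 libraries (4.63% of all regions), and none in the untreated libraries alone (0.0272%). With the lists of SUPB15 cut to equal length, or with only peaks of −log10 q of at least 10, the number gained was 0. The share of all regions gained was determined for the full lists only, in either line.

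Where a region was listed in all 4 libraries of a line, the summit level was higher with asparaginase at most transporter regions. In Nalm6 both asparaginase libraries were above both untreated ones at 10 of 11 regions, beside 60.4% of the 25213 regions of that kind (6.14% had them below), with the upstream start of SLC3A2 as the exception. In SUPB15 the same held for 6 of 6 regions, beside 68.1% of 4765 (1.70% had them below). Since the levels of most regions on the genome were higher with asparaginase, by a median of 0.37 on the log2 scale in Nalm6 and 0.62 in SUPB15, each change below is also given relative to that median. Relative to it, limma with Benjamini-Hochberg adjustment over all regions called 6 of 11 transporter regions higher in Nalm6 and 0 lower (0 lower also at an unadjusted p of 0.05), beside 22.7% higher and 8.64% lower of all regions. In SUPB15 it called 2 of 6 higher and 0 lower (0 lower also at an unadjusted p of 0.05), beside 20.5% and 5.96%. The median relative change of the transporter regions was 0.46 in Nalm6 and 0.31 in SUPB15, beside 0 for all regions by construction. Without Nalm6 asparaginase replicate 1, or without replicate 2, only the downstream region of SLC7A5 remained called of the 6, beside 17.0% and 16.3% of all regions called higher. Without SUPB15 asparaginase replicate 1 or 2 SLC38A2 alone remained, beside 8.23% and 22.3% of all regions. Without untreated SUPB15 replicate 1 or 2 neither call remained, and of all regions only 0.126% and 0% were called higher. On the deposited fold, centred in the same way, 0 transporter regions were called higher. In that fit 15.2% of all regions in Nalm6 and 955 of 4765 in SUPB15 were called higher. It called 5 of 11 transporter regions lower in Nalm6, beside 4.07% of all regions, and 1 of 6 in SUPB15, beside 11.5%. Quantile normalization called 4 of 11 higher and 3 lower in Nalm6, beside 18.5% and 18.8% of all regions. With only regions of −log10 q of at least 10 in SUPB15, where the median change was 1.09, 0 transporter regions were called higher. Of the 1642 regions in that fit, 3.35% were called higher and 31.3% lower. Directions on the deposited fold differ for several regions and are given with each gene.

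**Figure D2:**
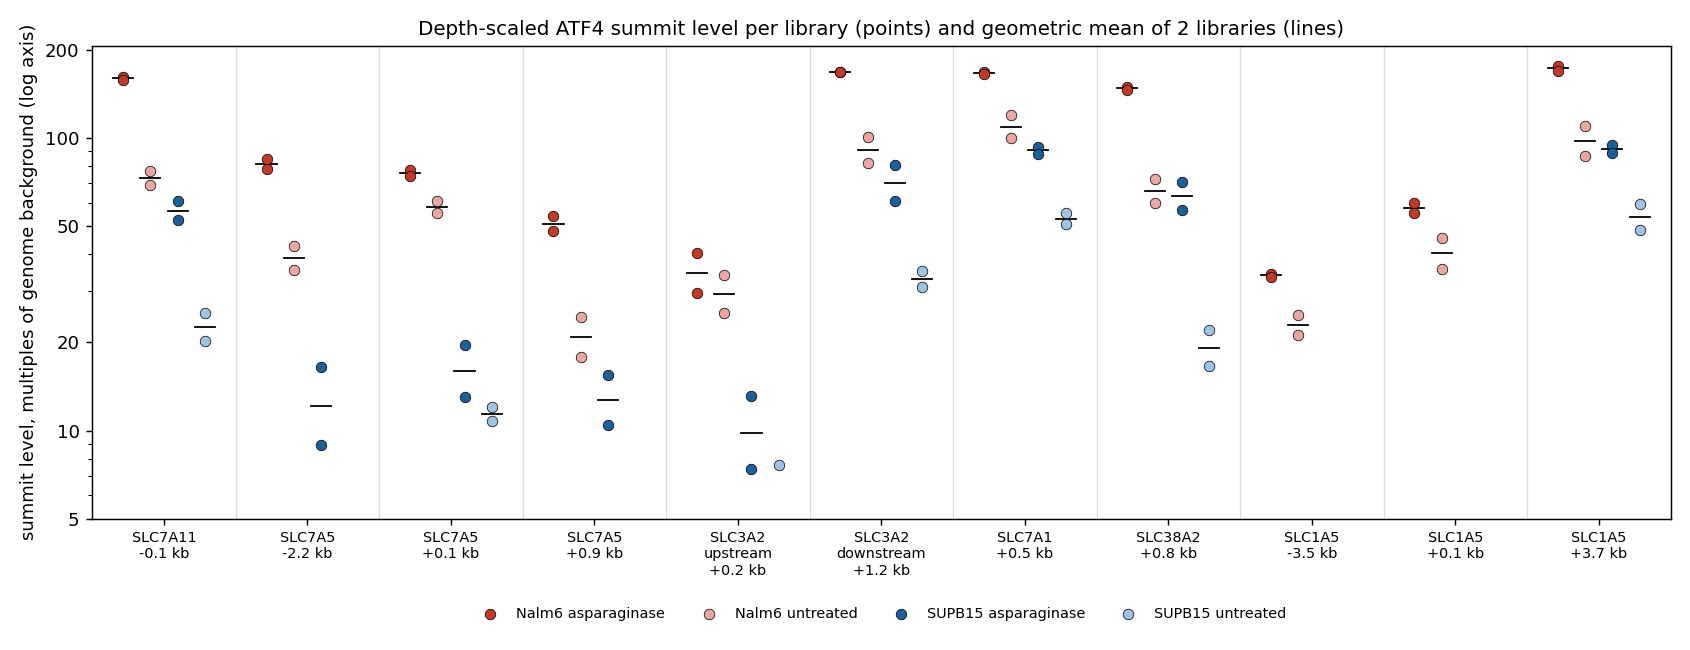
Summit level of each transporter region, in multiples of the genome background of its library (log axis), with points for the 2 libraries of a group and lines for their geometric mean; labels give the gene and the median summit distance from the start in kb. Asparaginase-treated Nalm6 reaches 146 to 176 at the 5 strongest regions, and in SUPB15 both asparaginase points lie above both untreated points at each of the 6 regions listed in all 4 libraries.

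SLC7A11, the cystine transporter, had a higher summit level with asparaginase in both lines, but on the deposited fold it was higher in SUPB15 and lower in Nalm6. Its summit level was 161 and 158 in asparaginase-treated Nalm6, against 69.0 and 77.1 in untreated Nalm6. In SUPB15 it was 60.8 and 52.2 with asparaginase, against 25.2 and 20.3 untreated. The groups did not overlap in either line. The level was 2.19-fold higher in Nalm6, or 0.76 ± 0.16 (log2, SE, n = 2 and 2) above the median region with limma adjusted p = 2.64e-05. The SUPB15 level was 2.49-fold higher, or 0.70 ± 0.27 above the median region with limma adjusted p = 0.0390, and 0.22 with quantile normalization, which did not pass (adjusted p = 0.192).

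On the deposited fold, which divides by the background around the peak, SLC7A11 went opposite ways in the 2 lines. The fold was 13.3 and 12.5 in asparaginase-treated Nalm6, against 13.96 and 15.1 in untreated Nalm6. It was 18.0 and 19.9 in asparaginase-treated SUPB15, against 12.2 and 12.3 in untreated SUPB15. The asparaginase libraries are thus both lower in Nalm6 and both higher in SUPB15, with no overlap. With asparaginase the Nalm6 summit pileup was 355 and 367 fragments, and no peak of any list exceeded 400. The local background under the Nalm6 peak was 25.8 and 28.4 fragments with asparaginase, against 13.7 and 13.3 untreated. The part of either in the lower fold was not tested. The sources used do not say whether this background came from an input or from the same library; in the second case the divisor of every deposited fold also holds ATF4 signal from around the peak. In SUPB15 the local background was 13.2 and 9.32 fragments with asparaginase, against 7.46 and 5.42 untreated. The peak's −log10 q was 258 in each of the 2 asparaginase-treated Nalm6 lists, against 154 and 169 untreated. It was 220 and 186 in asparaginase-treated SUPB15, against 72.5 and 56.4 untreated. By fold, the SLC7A11 peak ranked 82 and 45 in the asparaginase lists of SUPB15 and 176 and 118 in the untreated ones, and 1232 and 1773 in the asparaginase lists of Nalm6 and 202 and 161 in the untreated ones. Ranks come from lists of different lengths and describe each list by itself; in all 8 lists the peak was within the top 3.62%.

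SLC7A5, the light chain for large neutral amino acids, differed between its 3 regions. In Nalm6 the downstream region had a summit level of 48.0 and 54.1 with asparaginase, against 17.8 and 24.4 untreated, and limma put it 0.92 ± 0.18 above the median region (adjusted p = 7.10e-06). The upstream region had 78.3 and 84.9 in asparaginase-treated Nalm6, against 35.3 and 42.7 untreated, which is 0.71 ± 0.17 above the median region (limma adjusted p = 0.000287), and −0.15 with quantile normalization of the libraries. The start-site region had 74.3 and 77.7 in asparaginase-treated Nalm6, against 55.2 and 60.6 untreated. All 3 regions had both asparaginase libraries above both untreated ones, but at the start site the change was close to that of the median region, 0.03 ± 0.17 (limma adjusted p = 0.921; 95% interval −0.30 to 0.36).

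The 3 SLC7A5 regions also parted by the deposited fold in Nalm6. Downstream the fold was 3.62 and 3.47 with asparaginase, against 2.36 and 2.70 untreated. Upstream it was 6.21 and 5.66 with asparaginase, against 4.84 and 4.93 untreated. At the start site it was 5.64 and 5.01 with asparaginase, against 7.31 and 6.75 untreated. So the outer regions were higher with asparaginase on both scales and the start-site region was lower on this one, without overlap in any of the 3. The −log10 q of the downstream region was 25.1 and 28.3 with asparaginase and 5.56 and 9.83 untreated, which makes it the weakest region of the untreated Nalm6 lists among those listed 4 times.

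In SUPB15 the outer SLC7A5 regions were the gained ones. The upstream region had a summit level of 16.5 and 8.91 and a fold of 3.47 and 2.89 in asparaginase-treated SUPB15, and no listed peak in untreated SUPB15. The downstream region had a level of 15.5 and 10.4 and a fold of 3.12 and 3.24 in asparaginase-treated SUPB15, and no listed peak in untreated SUPB15. A missing peak is not a level of 0. The lowest level that a peak of the untreated SUPB15 lists had at genome background was 3.68 and 3.59. Under the SLC7A5 start-site peak of these lists the local background was 2.52 and 2.29 times the genome background. The level that a peak needs to be listed there is higher and was not determined. The start-site region had 19.6 and 12.99 in asparaginase-treated SUPB15, against 12.0 and 10.8 untreated, with no overlap but little distance between the groups. Relative to the median region this was −0.13 ± 0.36 (limma adjusted p = 0.775; 95% interval −0.84 to 0.58), and 0.49 without centring. Its fold was 3.996 and 4.11 in asparaginase-treated SUPB15, against 4.34 and 4.23 untreated.

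SLC3A2, the heavy chain shared by both light chains, had a strong downstream region and a weak upstream one. The downstream region had a summit level of 168 and 167 in asparaginase-treated Nalm6, against 81.8 and 100.7 untreated, and 80.7 and 60.9 in asparaginase-treated SUPB15, against 35.0 and 31.0 untreated. The groups did not overlap in either line. In Nalm6 it was 1.85-fold higher, or 0.52 ± 0.16 above the median region (limma adjusted p = 0.00651; 0.0562 without the mean-variance trend), while its deposited fold was lower. SUPB15 had a 2.12-fold higher level, and 0.47 ± 0.21 above the median region did not pass (limma adjusted p = 0.0773). The fold was 10.4 and 9.12 in asparaginase-treated Nalm6, against 11.2 and 11.7 untreated, so that it was lower with asparaginase there. It was 11.1 and 11.7 in asparaginase-treated SUPB15, against 9.45 and 8.39 untreated, so that it was higher with asparaginase in that line. The −log10 q ran from 65.3 to 232 over the 8 lists.

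By the level of its strongest region, the upstream SLC3A2 start was the weakest of the 7 sites. Its summit level was 29.4 and 40.3 in asparaginase-treated Nalm6, against 25.2 and 34.1 untreated, and these overlap. Its deposited fold was 5.91 and 7.38 in asparaginase-treated Nalm6, against 5.73 and 7.08 untreated, which also overlap. Relative to the median region the level differed by −0.13 ± 0.19 (limma adjusted p = 0.629; 95% interval −0.50 to 0.23), and by 0.23 without centring. In SUPB15 the level was 13.1 and 7.38 with asparaginase, against 7.60 in the untreated library that listed a peak there. That untreated peak had a −log10 q of 5.71 and ranked 6526 of 9575.

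SLC7A1, the cationic amino acid transporter, had a high level in all groups, and its change did not pass the test relative to the median region. Its summit level was 167 and 165 in asparaginase-treated Nalm6, against 99.6 and 119 untreated. In SUPB15 it was 93.3 and 87.8 with asparaginase, against 55.1 and 50.8 untreated. The groups did not overlap in either line, with 1.52-fold higher levels in Nalm6 and 1.71-fold higher ones in SUPB15. Relative to the median region the change was 0.24 ± 0.16 in Nalm6 (limma adjusted p = 0.257; 95% interval −0.07 to 0.56) and 0.16 ± 0.15 in SUPB15 (limma adjusted p = 0.402; 95% interval −0.14 to 0.45). The fold was 10.9 and 10.1 in asparaginase-treated Nalm6, against 13.2 and 12.4 untreated, lower with asparaginase and without overlap. It was 9.77 and 11.8 in asparaginase-treated SUPB15, against 11.4 and 11.9 untreated, where the groups overlap. SLC7A1 peaks were among the top 7.63% by fold in all 8 lists, and their −log10 q ran from 135 to 239. With asparaginase their summit pileups were 368 and 384 fragments in Nalm6 and 390 and 344 in SUPB15. No peak of any list exceeded 400, and whether this bounds the change at SLC7A1 was not tested.

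SLC38A2, the sodium-coupled neutral amino acid transporter, was higher with asparaginase in both lines on both scales. Its summit level was 149.0 and 146 in asparaginase-treated Nalm6, against 59.9 and 72.4 untreated. In SUPB15 it was 70.4 and 56.5 with asparaginase, against 22.1 and 16.7 untreated. The level was 2.24-fold higher in Nalm6, or 0.80 ± 0.16 above the median region (limma adjusted p = 1.25e-05). With quantile normalization the Nalm6 change was 0.12 and did not pass (adjusted p = 0.133). The SUPB15 level was 3.29-fold higher, or 1.10 ± 0.27 above the median region (limma adjusted p = 0.00255; 95% interval 0.57 to 1.63). The deposited fold was 9.30 and 8.45 in asparaginase-treated Nalm6, against 6.90 and 7.99 untreated, and 10.7 and 12.2 in asparaginase-treated SUPB15, against 7.09 and 6.12 untreated. Neither scale showed overlap in either line. Centred on the median, the fold was not called in either line. The peak was 1532 and 1569 bp in asparaginase-treated Nalm6, against 1547 and 1566 bp untreated, and 1425 and 1323 bp in asparaginase-treated SUPB15, against 966 and 980 bp untreated.

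SLC1A5, the neutral amino acid exchanger, had its signal downstream of the start. That region had a summit level of 176 and 169 in asparaginase-treated Nalm6, against 86.8 and 110 untreated, and 94.5 and 88.6 in asparaginase-treated SUPB15, against 59.5 and 48.5 untreated. The groups did not overlap in either line. It was 1.77-fold higher in Nalm6, or 0.46 ± 0.16 above the median region (limma adjusted p = 0.0190; 0.0976 without the mean-variance trend), while its deposited fold was lower. SUPB15 had a 1.70-fold higher level, and 0.15 ± 0.15 above the median region did not pass (limma adjusted p = 0.416; 95% interval −0.14 to 0.44). The fold was 8.45 and 7.37 in asparaginase-treated Nalm6, against 8.46 and 9.05 untreated, lower with asparaginase by a small margin. It was 10.1 and 13.005 in asparaginase-treated SUPB15, against 11.6 and 10.6 untreated, where the groups overlap. With asparaginase the summit pileups of this region were 387 and 394 fragments in Nalm6 and 395 and 347 in SUPB15. No peak of any list exceeded 400, and whether this bounds the change here was not tested.

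The weaker SLC1A5 regions were read in Nalm6 alone. The start-site region had a level of 55.3 and 59.6 with asparaginase, against 35.7 and 45.5 untreated, and a relative change of 0.14 ± 0.17 (limma adjusted p = 0.567), while its fold was 2.46 and 2.42 with asparaginase, against 3.14 and 3.39 untreated. The upstream region had a level of 33.5 and 34.3 with asparaginase, against 21.2 and 24.7 untreated, and a relative change of 0.20 ± 0.19 (limma adjusted p = 0.449). Neither passed, though neither overlapped on the level scale.

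**Figure D3:**
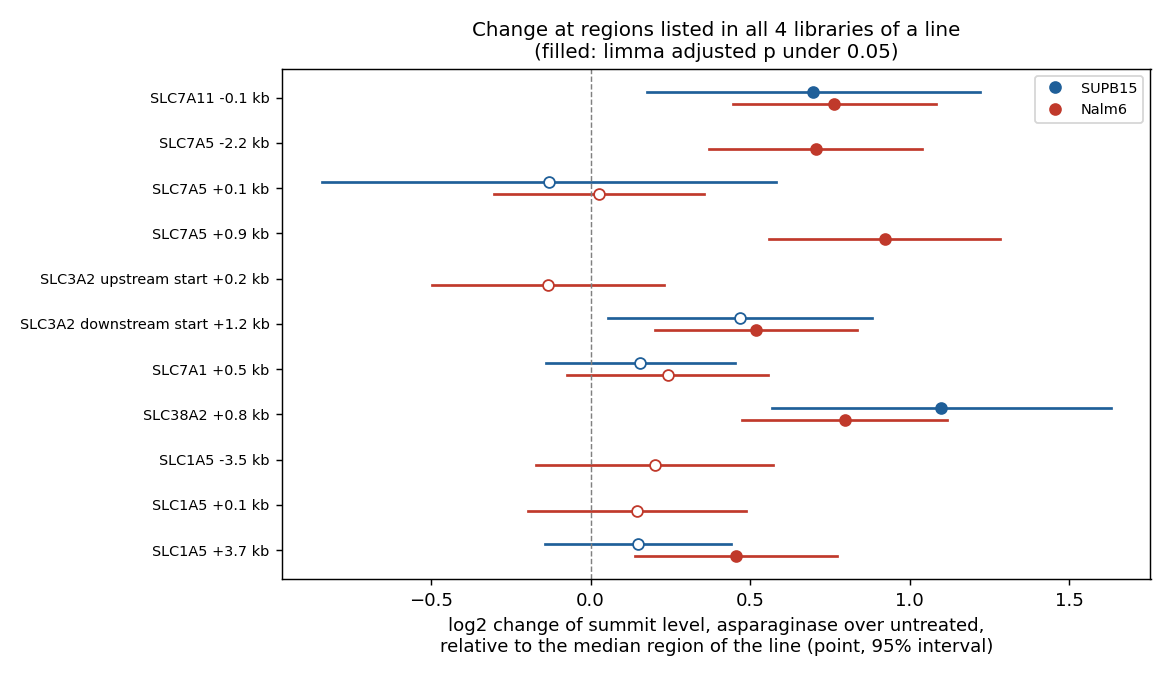
Log2 change of the summit level with asparaginase over untreated, relative to the median region of the line, with 95% intervals from limma; filled points have an adjusted p under 0.05. SLC38A2 and SLC7A11 are filled in both lines, and the start-site region of SLC7A5 lies near 0 in both; on the deposited fold, centred, the sign turns in Nalm6 for SLC7A11, the SLC7A5 start, the downstream SLC3A2 start, SLC7A1 and SLC1A5, and in SUPB15 for the last 3 of these.

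Across transporters the deposited fold gave a different split from the level. In Nalm6 the fold of both asparaginase libraries was above both untreated ones at 3 of 11 regions, the outer 2 of SLC7A5 and SLC38A2, beside 44.8% of all regions. It was below both at 6 of 11, beside 14.2% of all regions. These 6 are at SLC7A11, the SLC7A5 start, the downstream SLC3A2 start, SLC7A1, and the downstream and start-site regions of SLC1A5. In SUPB15 it was above at 3 of 6 regions, SLC7A11, SLC3A2 and SLC38A2, beside 65.2%, and below at 1, the SLC7A5 start, beside 4.13%.

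**Figure D4:**
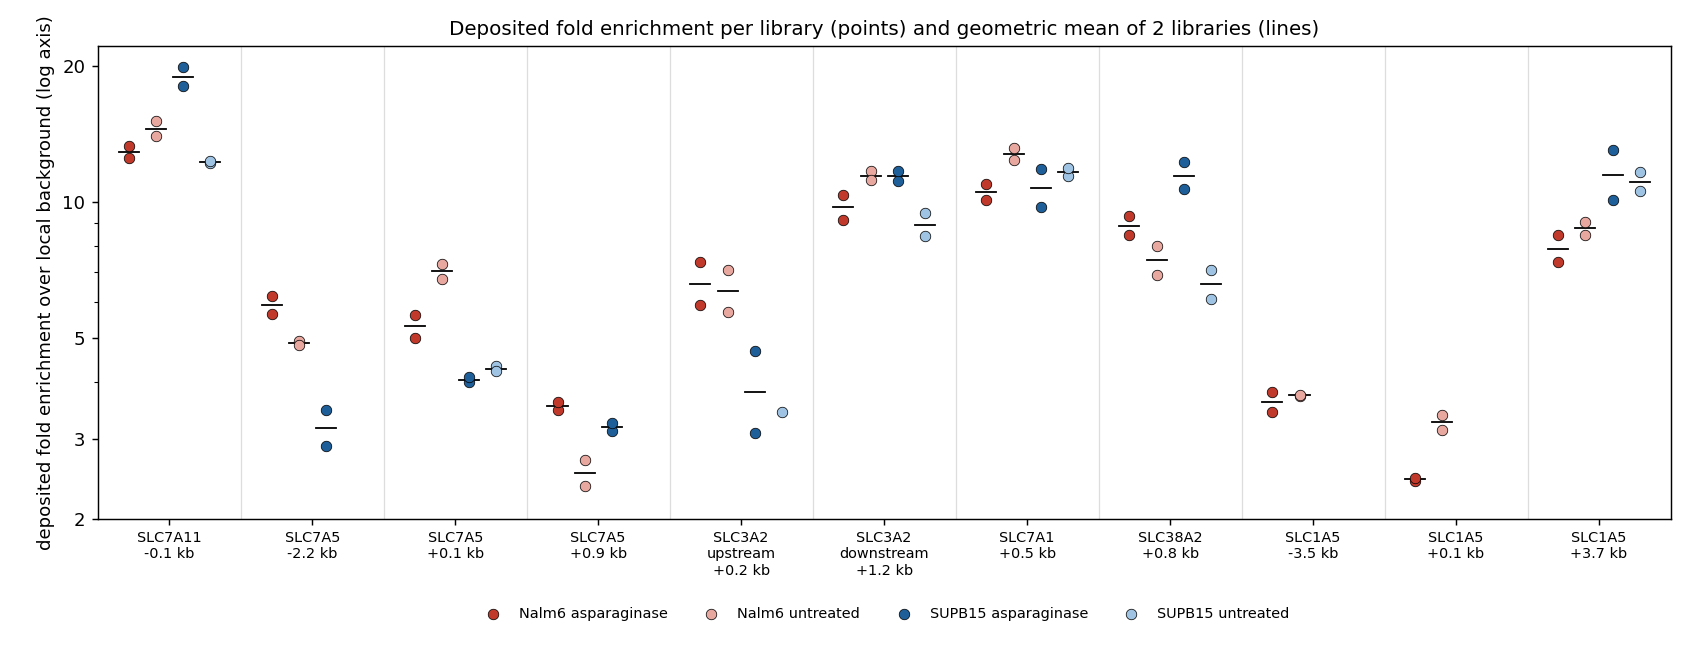
Deposited fold enrichment of each transporter region over its local background (log axis), with points for the 2 libraries of a group and lines for their geometric mean. SLC7A11 in asparaginase-treated SUPB15, at 18.0 and 19.9, is the highest, while in Nalm6 its asparaginase points, 13.3 and 12.5, lie below the untreated ones.

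Ranks by fold within each list place the other strong regions behind SLC7A11 in every list of both lines. The downstream SLC3A2 region ranked 3078 and 5120 in asparaginase-treated Nalm6, against 718 and 744 untreated, and 1279 and 861 in asparaginase-treated SUPB15, against 498 and 512 untreated. SLC7A1 ranked 2606 and 3738 in asparaginase-treated Nalm6, against 291 and 540 untreated, and 1896 and 829 in asparaginase-treated SUPB15, against 233 and 144 untreated. The untreated lists are shorter, and these ranks show no change by themselves. SLC38A2 ranked 4287 and 6411 in asparaginase-treated Nalm6, against 5507 and 3752 untreated, and 1457 and 729 in asparaginase-treated SUPB15, against 1028 and 1071 untreated. The downstream SLC1A5 region ranked 5625 and 9595 in asparaginase-treated Nalm6, against 2515 and 2245 untreated, and 1739 and 581 in asparaginase-treated SUPB15, against 211 and 239 untreated. At the far end, the start-site region of SLC1A5 ranked 43101 and 48646 in asparaginase-treated Nalm6, against 31543 and 31061 untreated, among the last of the asparaginase lists.

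The authors' −log10 p is given here for 4 regions. For SLC7A11 it was 264 in each of the 2 asparaginase-treated Nalm6 lists, against 159 and 174 untreated, and 225 and 192 in asparaginase-treated SUPB15, against 77.3 and 61.3 untreated. For SLC38A2 it was 196 and 190 in asparaginase-treated Nalm6, against 87.3 and 110 untreated, and 193 and 160 in asparaginase-treated SUPB15, against 47.1 and 31.1 untreated. Both genes had higher values with asparaginase in both lines with no overlap, though a p-value also grows with depth. For SLC7A1 it was 244 and 241 in asparaginase-treated Nalm6, against 220 and 238 untreated, and 240 and 239 in asparaginase-treated SUPB15, against 155 and 140 untreated. At the SLC7A5 start it was 68.1 and 66.9 in asparaginase-treated Nalm6, against 84.4 and 81.6 untreated, so that it was lower with asparaginase there, and 25.2 and 17.1 in asparaginase-treated SUPB15, against 17.6 and 15.01 untreated, where the groups overlap.

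The difference between the lines was tested as an interaction over the 3812 regions listed in all 8 libraries. None of the 6 transporter regions was called (limma, 0 of 6 also at an unadjusted p of 0.05), beside 0.498% of all regions with a higher and 4.93% with a lower effect in SUPB15. The SUPB15 effect minus the Nalm6 effect was 0.43 for SLC38A2 (log2; 95% interval −0.14 to 0.99; adjusted p = 0.600). It was 0.06 for SLC7A11 (95% interval −0.48 to 0.60), 0.07 for SLC3A2 (−0.39 to 0.54) and 0.04 for SLC7A1 (−0.35 to 0.43). It was −0.18 for SLC1A5 (−0.57 to 0.21) and −0.03 for the SLC7A5 start (−0.80 to 0.73). Values that missed the threshold with intervals of this width do not show the lines to act alike.

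By mean level, the strongest regions of SLC1A5, SLC3A2 and SLC7A1 led in every group. In asparaginase-treated Nalm6 these 3 lay between 165 and 176, followed by SLC7A11 at 158 to 161 and SLC38A2 at 146 to 149.0. In untreated Nalm6 the neighbours SLC7A1, SLC1A5 and SLC3A2 overlapped one another, and SLC38A2 overlapped SLC7A11. In asparaginase-treated SUPB15, SLC1A5 and SLC7A1 overlapped at 87.8 to 94.5, above SLC3A2, which overlapped SLC38A2, and above SLC7A11, which overlapped SLC38A2 too. In untreated SUPB15 they overlapped at 48.5 to 59.5, above SLC3A2 at 31.0 and 35.0, and SLC7A11 and SLC38A2 overlapped below that. The SLC7A5 start had the lowest mean level of the 6 regions listed in all 8 libraries in each of the 4 groups. In Nalm6 with asparaginase, the summit pileups of the 5 strongest regions were 328 to 394 fragments. In SUPB15 with asparaginase the pileups of SLC1A5 and SLC7A1 were 344 to 395 fragments. No peak of any list exceeded 400, and whether this bounds the changes in either line was not tested.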

How the data were processed

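ATF4 peak lists of 8 libraries were analysed, 2 for each line and treatment, grouped from the sample titles. Per the submitters' processing notes, BWA, MACS2, DiffBind and hg19 were used as tools and build. Their versions and options, and any input control, are not stated in what was at hand. Each list belongs to 1 library, so the authors called peaks per sample. The deposited lists give a fold enrichment, a ratio over local background, and the authors' −log10 p and −log10 q.

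Fold and −log10 p were solved for summit pileup and local background, using the caller's formulas (1 added to each for the fold, a Poisson tail for p); 100% of peaks were solved within 0.001 in −log10 p. Regions merge peaks that share at least 1 bp, keeping the strongest peak per list. Log2 summit levels of regions listed in all 4 libraries of a line were fitted with limma 3.58.1 (R 4.3.3, trend), centred on the median change, with Benjamini-Hochberg adjustment over all regions at 0.05; the lines' difference was an interaction over regions in all 8 libraries. Python 3.11.15 with numpy 2.4.6, pandas 2.3.3 and scipy 1.17.1 did the rest. The fit was checked on simulated data.

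All 6 genes were named, with every peak, and a site's strongest region was that with the highest mean level. Members and lists were chosen with earlier results of these data known. Other amino acid transporters and peak sequences need a genome annotation of this build and were not analysed here. Alternatives are given in the closing section.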

Additional observations from a re-analysis of the deposited data

Results flagged for a closer look

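On the deposited fold enrichment, 2 regions moved in opposite directions in the 2 lines in every library: both asparaginase libraries were above both untreated ones in SUPB15 and below both in Nalm6. Only transporter regions were searched for this pattern. The share of all regions that have it was not determined, so the count does not show it to be unusual. At SLC7A11 the log2 change of the fold in SUPB15 minus that in Nalm6 was 0.797 without centring. limma's interaction over the 3812 regions listed in all 8 libraries gave it an adjusted p of 0.00496, beside 6.35% of all regions called higher and 0.708% lower. Centred on the median region it was 0.54, with limma adjusted p = 0.0499, beside 1.21% higher and 1.84% lower. At the downstream start of SLC3A2 the same difference was 0.591 without centring, with limma adjusted p = 0.0818, which did not pass. Centred on the median region it was 0.33 there, with limma adjusted p = 0.441. On the depth-scaled summit level both regions were higher with asparaginase in both lines. The difference was 0.06 for SLC7A11 and 0.07 for SLC3A2, neither of which passed. In asparaginase-treated Nalm6 the summit pileups were 355 and 367 fragments at SLC7A11 and 370 and 389 at SLC3A2. In asparaginase-treated SUPB15 they were 254 and 204 at SLC7A11 and 337 and 238 at SLC3A2. No peak of any list exceeded 400, and whether this bounds the fold was not tested.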

How the results depend on the processing

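With 2 libraries a group and no read totals, small differences could not be resolved, and the direction at several regions depends on the scale. The cause was not tested for any change given here, except that fewer libraries or regions enter by construction. The log2 changes below are asparaginase over untreated.

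Shares in parentheses are over all regions in the same fit. Without centring, 10 Nalm6 (38.7%) and 5 SUPB15 regions (2334 of 4765) were called higher, and the upstream SLC3A2 start in Nalm6 and the SLC7A5 start in SUPB15 turned to 0.23 and 0.49. On the deposited fold, centred, 0 regions were called higher in Nalm6 (15.2%) or SUPB15 (955 of 4765), and 5 in Nalm6 (4.07%) and 1 in SUPB15 (11.5%) lower. Its Nalm6 values were −0.31 for SLC7A11, −0.54 for the SLC7A5 start, −0.37 for the downstream SLC3A2 start, −0.42 for SLC7A1, and −0.29, −0.56 and −0.19 for the downstream, start-site and upstream SLC1A5 regions; in SUPB15 they were −0.069 for SLC3A2, −0.54 for SLC7A1 and −0.38 for SLC1A5. Quantile normalization called 4 Nalm6 regions higher (18.5%) and 3 lower (18.8%), with −0.78 at the SLC7A5 start, −0.15 upstream of it, −0.013 at SLC7A1, and −0.60 and −0.054 at the start-site and upstream SLC1A5 regions. With only regions of −log10 q of at least 10 in all 4 lists, 0 SUPB15 regions were called higher (3.35%), and SLC3A2, SLC7A1 and SLC1A5 had −0.0049, −0.32 and −0.32.

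Without the mean-variance trend 4 Nalm6 regions were called higher (22.1%), without the SLC3A2 and SLC1A5 ones. SLC38A2 was positive under every alternative tried, between 0.12 and 1.16 in Nalm6 and between 0.37 and 1.72 in SUPB15, as was SLC7A11 in SUPB15, between 0.20 and 1.32. The downstream SLC7A5 region in Nalm6 was positive, between 0.35 and 1.29, under the alternatives that held it. It was not in the fit with −log10 q of at least 10, as its untreated values were 5.56 and 9.83. Leaving out each library in turn left 1 to 7 Nalm6 regions called higher (16.3% to 21.2%) and 0 to 1 SUPB15 regions (0% to 22.3%). The 7 came without untreated Nalm6 replicate 1 (20.4%) or replicate 2 (21.2%). Each such fit has 1 library in a group, so its calls do not measure the spread within that group. Without asparaginase replicate 1 the upstream SLC3A2 start in Nalm6 was 0.040.

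For the difference between the lines, leaving out each library gave −0.068 to 0.14 for SLC7A11 (−0.021 without SUPB15 asparaginase replicate 2), −0.18 to 0.070 for the SLC7A5 start and −0.11 to 0.14 for SLC7A1. The SLC7A5 start was 0.064 on the deposited fold and 0.094 without centring, and SLC7A1 −0.091 on the deposited fold. The fold, an alternative added after seeing the data, called 1 region higher (1.21%).

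With −log10 q of at least 10, 1 Nalm6 region was gained and 0 in SUPB15. With equally long lists, 0 were gained in SUPB15, and 2 Nalm6 regions and 1 SUPB15 region were listed in untreated libraries alone. Leaving out a library gave 0 to 1 gained in Nalm6 and 2 to 3 in SUPB15. For these changed lists the share of all regions in each class was not determined, and the shares given above for the full lists do not apply. Replicate numbers are shared between groups, and same-numbered libraries deviated together with a correlation of 0.0332 in Nalm6 and 0.0860 in SUPB15; with the replicate block, 6 Nalm6 (25.4%) and 3 SUPB15 regions (34.3%) were called higher, the third SUPB15 one being the downstream SLC3A2 region (limma adjusted p = 4.6e-05), and 0 in the interaction (1.36% higher, 9.42% lower).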
